A study of Mus musculus with 6 samples.

Results

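Cholesterol and fatty acid synthesis genes were followed in whole tracheas of mouse embryos that lacked cartilage rings. The set held 44 genes: 16 of the sterol branch, 5 that regulate the pathway and 23 of the fatty acid branch. They were chosen by name, with earlier results of these data known. Of these, 37 had a probe under the listed symbol in the table of raw intensities, and 2 more were found under an older symbol (Acaca as Acac, Me1 as Mod1). After a filter on dim probes, 38 of the 44 were tested, among 10831 genes tested in all. Idi1, which isomerises the building block of all isoprenoids, had a probe that was too dim to test. Mvk, Fdft1, Tm7sf2, Srebf2 and Acacb had no probe under these symbols in the table and were not analysed here.

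Per the labels, 3 pools came from embryos with the genotype Sox9-/- (labelled mutant), in which Sox9 was missing from the mesenchyme, and 3 pools came from Sox9+/+ embryos (labelled control). Being a whole organ, each sample held epithelium, mesenchyme and attached tissue. All embryos were of the C57BL/6 background at stage E18.5. What drove the deletion is not given in the sources used here. Each pool held 3 tracheas, and 9 tracheas per group from 7 pregnant females were pooled at random. RNA was read on Illumina bead arrays, where each probe is averaged over many beads, and values are given as background-corrected, normalized log2 intensity.

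Cells make cholesterol from acetyl-CoA through mevalonate and squalene, and make fatty acids from the same precursor through malonyl-CoA. Both routes are controlled by the SREBP transcription factors, which Scap escorts from the endoplasmic reticulum to the Golgi for activation and which Insig proteins hold back when sterols are plentiful. In the lung, fatty acids made on site feed the phospholipids of surfactant, and every dividing cell needs sterols and fatty acids for membranes.

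The 6 arrays had 14468 to 14726 of 25697 probes above background (detection p below 0.05) and a median of 38 or 39 beads per probe. Sox9 was read by 1 probe that lay at background in the pools labelled control (detection p 0.358 to 0.748). It lay just above background in the pools labelled mutant (0.0163 to 0.0426), a log2 change of 0.86. Only these pools brought it through the filter on dim probes, so no p-value is given. With the control values raised to the detection limit, the group means differed 1.12-fold. This direction goes against the label, at values close to background. Whether the probe lies in the deleted part is not given in the sources used here. Col2a1, the main cartilage collagen, stood at 4.94, 5.41 and 5.67 in the pools labelled mutant, against 11.72, 11.68 and 11.70 in the pools labelled control, and 7 of 9 tested chondrocyte markers fell. The airway secretory markers were all detected (6 of 6), which fits the labelled tissue. Markers of neighbouring tissue differed between pools. Tg, the thyroid hormone precursor, stood at 8.31, 9.20 and 7.75 in the pools labelled mutant and at 8.14, 13.28 and 10.86 in the pools labelled control. The skeletal muscle gene Acta1 stood at 12.64, 12.17 and 10.44 in the pools labelled mutant and at 7.00, 8.64 and 11.88 in the pools labelled control. In such bulk samples, fewer cells of a type and less RNA per cell cannot be told apart. The labels put all 6 arrays on 1 slide, with the groups on separate positions, so a slide position effect and the group cannot be told apart. Since each sample was a pool, p-values reflect only how far pools differed.

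Of the 38 members tested, 1 reached an adjusted p below 0.05 in limma's fit of the whole array: Elovl6 fell in the pools labelled mutant. None was called higher. At an unadjusted p below 0.05 there were 9 higher and 5 lower, where 12.1% of all genes were higher and 13% lower. Over all 10831 genes, 5.53% passed, 2.16% higher (234 genes) and 3.37% lower (365 genes), and with array median scaling 350 were higher and 289 lower. The share of members that passed was 2.63%. Changes were above 0 in 22 of the 38 members, against 51.1% of all genes. The groups did not overlap in 9 members with the mutant side higher (23.7%, against 15.3% of all genes) and in 4 with it lower (10.5%, against 16.1%). Over all genes, 31.4% did not overlap in either direction. The sterol branch had a median log2 change of 0.02 over 12 tested genes. The fatty acid branch had a median of 0.07 over 22, and all genes had a median of 0.01. Within the fatty acid branch the role groups lay on different sides of 0: the desaturation and elongation genes had a median of -0.23, the acyl-CoA synthetases 0.40 and the glycerolipid genes 0.29. The role groups and other lists were also drawn with earlier results of these data known. Their shares beside those of all genes, here and below, are therefore descriptions and not tests.

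**Figure D1:**
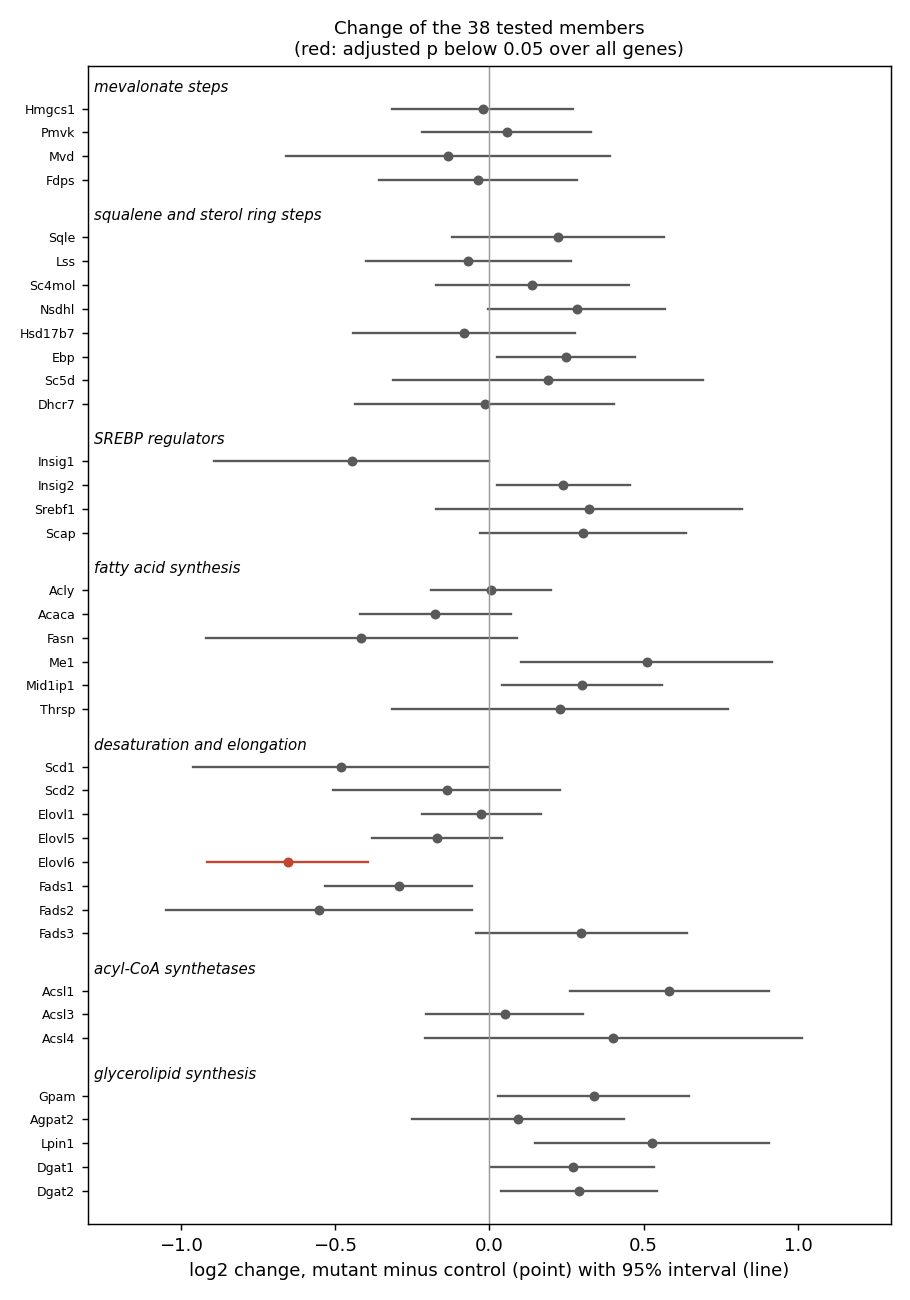
Log2 change of each tested member (points, pools labelled mutant minus pools labelled control) with its 95% interval from limma (lines), grouped by role, for 3 pools in each group. The interval of Elovl6 runs from -0.92 to -0.39, and Elovl6 is the only member drawn in red (adjusted p below 0.05).

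Elovl6, which lengthens saturated and monounsaturated fatty acids, had log2 intensities of 9.07, 9.01 and 8.86 in the pools labelled mutant, against 9.49, 9.78 and 9.63 in the pools labelled control. The groups did not overlap. The raw signal was 749, 698 and 654 in the pools labelled mutant and 769, 908 and 919 in the pools labelled control, so the groups were also apart before normalization. The mean was 8.98 ± 0.11 in the pools labelled mutant and 9.63 ± 0.14 in the pools labelled control (SD, n = 3 each), a log2 change of -0.65 (SE 0.11, limma adjusted p = 0.0272), or 1.57-fold lower. The probe was above background on all 6 arrays, with a bead error of 2.66% to 4.20% of the signal. In the authors' deposited table the log2 change of this probe was -0.65 with an adjusted p of 0.0350. The call rested on the full set of pools: it was kept without control pool 1 (limma adjusted p = 0.0330) and lost without any other single pool (adjusted p 0.0506 to 0.101), while the log2 change stayed between -0.72 and -0.58.

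Several marker lists also differed between the groups. Sums here and below are of raw signal, without background correction or normalization. The median raw signal of an array was 205 to 211 in the pools labelled mutant and 183 to 198 in the pools labelled control. Raw sums therefore lean towards the pools labelled mutant. The raw signal summed over the 9 of 11 chondrocyte markers detected on some array was 2989 to 3211 in the pools labelled mutant and 12750 to 15887 in the pools labelled control. That of the proliferation markers (7 of 8) was 7781 to 8574 in the pools labelled mutant and 8460 to 9640 in the pools labelled control, which overlap, and 5 of the 7 tested proliferation genes fell. Of 7 tested fibroblast markers 2 fell (Col1a1 and Thy1), with a median log2 change of -0.39 and sums of 37722 to 43899 in the pools labelled mutant and 43200 to 43637 in the pools labelled control. Of 4 tested smooth muscle markers 2 fell (Tagln and Actg2), with a median of -0.53 and sums over 5 markers of 17311 to 25668 in the pools labelled mutant and 21033 to 31102 in the pools labelled control. The 6 ciliated cell markers had changes above 0, with a median of 0.54 and none called, and sums of 17255 to 22552 in the pools labelled mutant and 10743 to 16314 in the pools labelled control. The part of these lists in the Elovl6 difference was not tested.

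The promoter of Elovl6 is shown because it belongs to the one member that passed. It was searched on both strands for the sterol regulatory element (SRE, TCACNCCAC), the E-box (CACGTG), the CCAAT box (CCAAT) and the GC box (GGGCGG), and none of these letters was found in the 250 bases before the start. It lies at chr3:129532136-129532385 on the plus strand of GRCm38.p6, from RefSeq, and is written in lower case throughout since there is no match to mark.
Elovl6: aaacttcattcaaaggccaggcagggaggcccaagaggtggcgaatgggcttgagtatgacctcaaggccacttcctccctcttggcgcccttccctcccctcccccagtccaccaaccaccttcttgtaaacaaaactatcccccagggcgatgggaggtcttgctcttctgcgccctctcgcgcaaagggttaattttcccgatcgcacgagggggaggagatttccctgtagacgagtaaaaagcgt

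Among the other desaturation and elongation genes none passed, but most lay below 0. In 4 of the 8 genes (Elovl6, Scd1, Fads1 and Elovl5) all values of the pools labelled mutant lay below all values of the pools labelled control, and in none did they lie above. Over all genes tested, 16.1% of genes did not overlap with the mutant side lower, and 15.3% with it higher. Before normalization, the raw signals of Scd1, Fads1 and Elovl5 overlapped between the groups, and only those of Elovl6 were apart. Raw signal leans towards the pools labelled mutant, as given above. Scd1, which puts the first double bond into saturated fatty acids, had 7.75, 7.08 and 7.82 in the pools labelled mutant, against 8.00, 8.16 and 7.95 in the pools labelled control. Its log2 change was -0.48 (SE 0.20, limma adjusted p = 0.197), and the low value of mutant pool 2 widened the spread. When the background was left in, the change of Scd1 was -0.28. Its neighbour Scd2, another desaturase, had a log2 change of -0.14 (SE 0.15) with overlapping groups.

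The front-end desaturases that make polyunsaturated fatty acids are encoded by neighbouring genes on chromosome 19. Fads1 had 12.23, 11.97 and 12.15 in the pools labelled mutant and 12.35, 12.41 and 12.47 in the pools labelled control (log2 change -0.29, SE 0.10, limma adjusted p = 0.133). Fads2, read close to background, had 5.49, 5.70 and 5.29 in the pools labelled mutant and 6.03, 5.66 and 6.44 in the pools labelled control, with overlapping groups. Its log2 change of -0.55 (SE 0.21, limma adjusted p = 0.163) became -0.16 when the background was left in. Fads3, the remaining gene of the cluster, had 8.81, 8.91 and 9.25 in the pools labelled mutant, against 8.53, 8.83 and 8.70 in the pools labelled control, a log2 change of 0.30 (SE 0.14) on the other side of 0 that also missed the threshold. Elovl5, an elongase of polyunsaturated chains, had a log2 change of -0.17 (SE 0.09), and Elovl1, which makes very long chains, of -0.03 (SE 0.08). The 4 probes of Elovl1 gave log2 changes between -0.24 and 0.06.

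**Figure D2:**
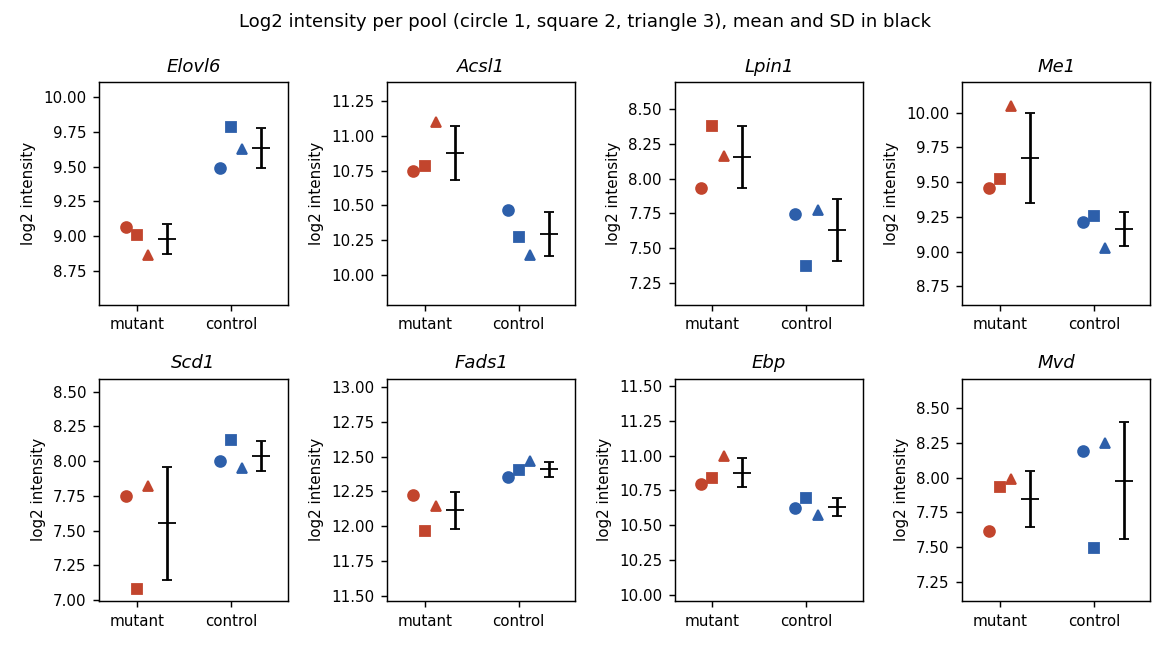
Log2 intensity of 8 members in each pool (red, labelled mutant; blue, labelled control), with mean and SD in black (n = 3 each); each panel spans the same height on the log2 axis. Elovl6, Scd1 and Fads1 lie lower in the pools labelled mutant, Acsl1, Lpin1, Me1 and Ebp lie higher, and the values of Mvd overlap; of these, Elovl6 passed the test.

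Long-chain acyl-CoA synthetases activate fatty acids for use in lipids or oxidation. Acsl1 came nearest to the threshold on the higher side, with 10.75, 10.78 and 11.10 in the pools labelled mutant, against 10.46, 10.27 and 10.14 in the pools labelled control. The groups did not overlap, and the log2 change was 0.58 (SE 0.14, 95% interval 0.26 to 0.91, limma adjusted p = 0.0582), which missed the threshold. In the authors' deposited table the log2 change was 0.58 with an adjusted p of 0.0683. It passed under some other settings, among them array median scaling (adjusted p = 0.0339) and no background correction (adjusted p = 0.0223), and in no fit without 1 pool (adjusted p 0.0561 to 0.154). Acsl4, which prefers arachidonate, had 7.37, 7.53 and 7.88 in the pools labelled mutant and 7.75, 6.96 and 6.86 in the pools labelled control, with a log2 change of 0.40 (SE 0.26). The change was 0.21 when the background was left in, and the other kept probes of Acsl4 gave -0.03 and -0.20. Acsl3, which serves lipid droplets, had a log2 change of 0.05 (SE 0.11).

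All 5 glycerolipid genes had changes above 0, none passed, and in 3 of the 5 (Lpin1, Dgat1 and Dgat2) the groups did not overlap, where 15.3% of all genes did so with the mutant side higher. Lpin1, a phosphatidate phosphatase that makes diacylglycerol, had 7.93, 8.38 and 8.16 in the pools labelled mutant, against 7.75, 7.37 and 7.77 in the pools labelled control. Its log2 change was 0.53 (SE 0.16, limma adjusted p = 0.104). The triglyceride-forming enzymes Dgat1 and Dgat2 had log2 changes of 0.27 (SE 0.11) and 0.29 (SE 0.11). Dgat2 had 10.01, 10.08 and 10.08 in the pools labelled mutant, against 9.87, 9.58 and 9.85 in the pools labelled control. Gpam, which takes the first step of glycerolipid synthesis, had a log2 change of 0.34 (SE 0.13) with overlap. Agpat2, the next enzyme, had a log2 change of 0.09 (SE 0.14). When the background was left in, the changes were 0.33 for Lpin1, 0.15 for Dgat1, 0.25 for Dgat2, 0.15 for Gpam and 0.07 for Agpat2. All 5 genes had their lowest control value in control pool 2.

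Markers of lipid-storing and surfactant-making cells were set beside these genes. Of 11 adipocyte markers, 5 were detected on some array (Adipoq, Cidea, Plin4, Cox8b and Cfd), and these 5 summed to a raw signal of 1608 to 1821 in the pools labelled mutant and 931 to 1124 in the pools labelled control. The 1 gene of the list that rose was Cox8b, a muscle and brown fat gene, and it held most of the gap between these sums. Its raw signal was 762, 804 and 705 in the pools labelled mutant and 206, 183 and 367 in the pools labelled control. Adipoq, an adipocyte hormone, had 5.87, 5.87 and 8.01 in the pools labelled mutant, against 7.26, 6.19 and 4.55 in the pools labelled control. It was highest in mutant pool 3 and lowest in control pool 3, as Acsl1 was, a match picked after the values were seen. The other pools did not match. Adipoq was lower in mutant pools 1 and 2 than in control pools 1 and 2, where Acsl1 was higher (10.75 and 10.78, against 10.46 and 10.27). Plin1, Cidec, Ucp1, Fabp4, Retn and Lep were dim (not above background) on every array. The alveolar type II and distal lung markers (7 of 10 detected) summed, over those 7, to 11890 to 18216 in the pools labelled mutant and 9917 to 10959 in the pools labelled control. Sftpb and Abca3 rose. Slc34a2 was above background on all 3 arrays labelled mutant and on no array labelled control. Only the mutant side brought Slc34a2 into the test, so its call is not counted as a rise here. With its control values raised to the detection limit, the group means differed 1.51-fold. The other tested markers were not called: Sftpc (log2 change 0.83), Lpcat1 (0.08), Sftpd (0.07) and Napsa (-0.63). Sftpa1, Lamp3 and Cldn18 were dim on every array. Skeletal muscle markers (5 of 6 with a probe, all detected) summed to 5172 to 22241 in the pools labelled mutant and 1390 to 12240 in the pools labelled control. The part of the adipocyte, lung and muscle lists in the acyl-CoA synthetase and glycerolipid values was not tested.

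The genes that make the saturated chain itself had no common side. Acly, which supplies cytosolic acetyl-CoA, had 12.67, 12.70 and 12.73 in the pools labelled mutant, against 12.66, 12.66 and 12.76 in the pools labelled control (log2 change 0.01, SE 0.08, 95% interval -0.19 to 0.20). Acaca, which makes malonyl-CoA, had a log2 change of -0.17 (SE 0.10). Fasn, the fatty acid synthase, was read near background: its probe was detected on 1 of 3 arrays labelled mutant and 3 of 3 labelled control, and its log2 change of -0.41 (SE 0.21, limma adjusted p = 0.278) shrank to -0.11 when the background was left in. Me1, which makes NADPH for this synthesis, had 9.46, 9.52 and 10.05 in the pools labelled mutant and 9.21, 9.25 and 9.02 in the pools labelled control. Its groups did not overlap, with a log2 change of 0.51 (SE 0.17, limma adjusted p = 0.129) and the same 0.51 by its other probe. Mid1ip1, an activator of acetyl-CoA carboxylase, had a log2 change of 0.30 (SE 0.11, limma adjusted p = 0.151) without overlap, and its partner Thrsp had 0.23 (SE 0.23) with overlap. All 6 tested genes of this role had their highest mutant value in mutant pool 3.

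In the sterol branch no gene passed limma's test, and 1 of 12 (Ebp) had an unadjusted p below 0.05, where 25.1% of all genes did. Adjusted p-values ran from 0.165 to 0.968. The 95% intervals of all 12 changes lay between -0.66 and 0.69 on the log2 scale, so a 2-fold difference lay outside each of them. The interval of Ebp (0.02 to 0.47, not adjusted for the number of genes) left out 0. The others included 0, so smaller differences in those genes could not be told from the spread between pools. Changes were below 0 in 6 genes and above 0 in 6.

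Among the mevalonate steps, Mvd, which makes isopentenyl pyrophosphate, had the smallest p and still overlapped: 7.61, 7.93 and 7.99 in the pools labelled mutant, against 8.19, 7.49 and 8.25 in the pools labelled control. Its log2 change was -0.13 (SE 0.22, limma adjusted p = 0.753). Hmgcs1, which condenses acetoacetyl-CoA with acetyl-CoA, had 13.28, 13.20 and 13.55 in the pools labelled mutant, against 13.48, 13.24 and 13.37 in the pools labelled control, a log2 change of -0.02 (SE 0.12). Its groups overlapped throughout. Fdps, which makes farnesyl pyrophosphate, had a log2 change of -0.04 (SE 0.13), and Pmvk, a mevalonate-pathway kinase, of 0.06 (SE 0.12).

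In the squalene and sterol ring steps, Ebp, the sterol isomerase, had 10.80, 10.84 and 11.00 in the pools labelled mutant, against 10.63, 10.69 and 10.57 in the pools labelled control. The groups did not overlap, with a log2 change of 0.25 (SE 0.09, limma adjusted p = 0.165). Nsdhl, a sterol dehydrogenase, also did not overlap, with a log2 change of 0.28 (SE 0.12, adjusted p = 0.205), and its 4 probes gave changes between -0.01 and 0.28. Sqle, the squalene epoxidase, had 11.85, 11.89 and 12.27 in the pools labelled mutant and 11.92, 11.61 and 11.81 in the pools labelled control (log2 change 0.22, SE 0.14, and 0.45, SE 0.14, by its other probe). The remaining steps stood between the log2 changes of Hsd17b7 (-0.08, SE 0.15) and Sc5d (0.19, SE 0.21). These were the cyclase Lss (-0.07, SE 0.14), the methyl oxidase Sc4mol (0.14, SE 0.13) and the last reductase Dhcr7 (-0.01, SE 0.18).

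In 11 of the 12 sterol genes (91.7%, against 64.5% of all genes) the range over the pools labelled mutant was larger than the difference between group means. The range over the pools labelled control was larger in 8 of the 12 (66.7%), near the 67.5% of all genes. The mean log2 deviation of the 12 genes was -0.05, -0.02 and 0.17 in the pools labelled mutant, against 0.08, -0.15 and -0.03 in the pools labelled control. Mutant pool 3 held the highest mutant value in 9 of 12 sterol genes (75.0%, against 36.7% of all genes), and control pool 2 held the lowest control value in 7 of 12 (58.3%, against 34.3% of all genes). Control pool 2 was also the pool with the most thyroid signal (3 of 4 thyroid markers detected on some array, summing to a raw signal of 786 to 1232 in the pools labelled mutant and 722 to 11683 in the pools labelled control), with the defining marker Slc5a5 dim on every array. The part of thyroid in these values was not tested.

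**Figure D3:**
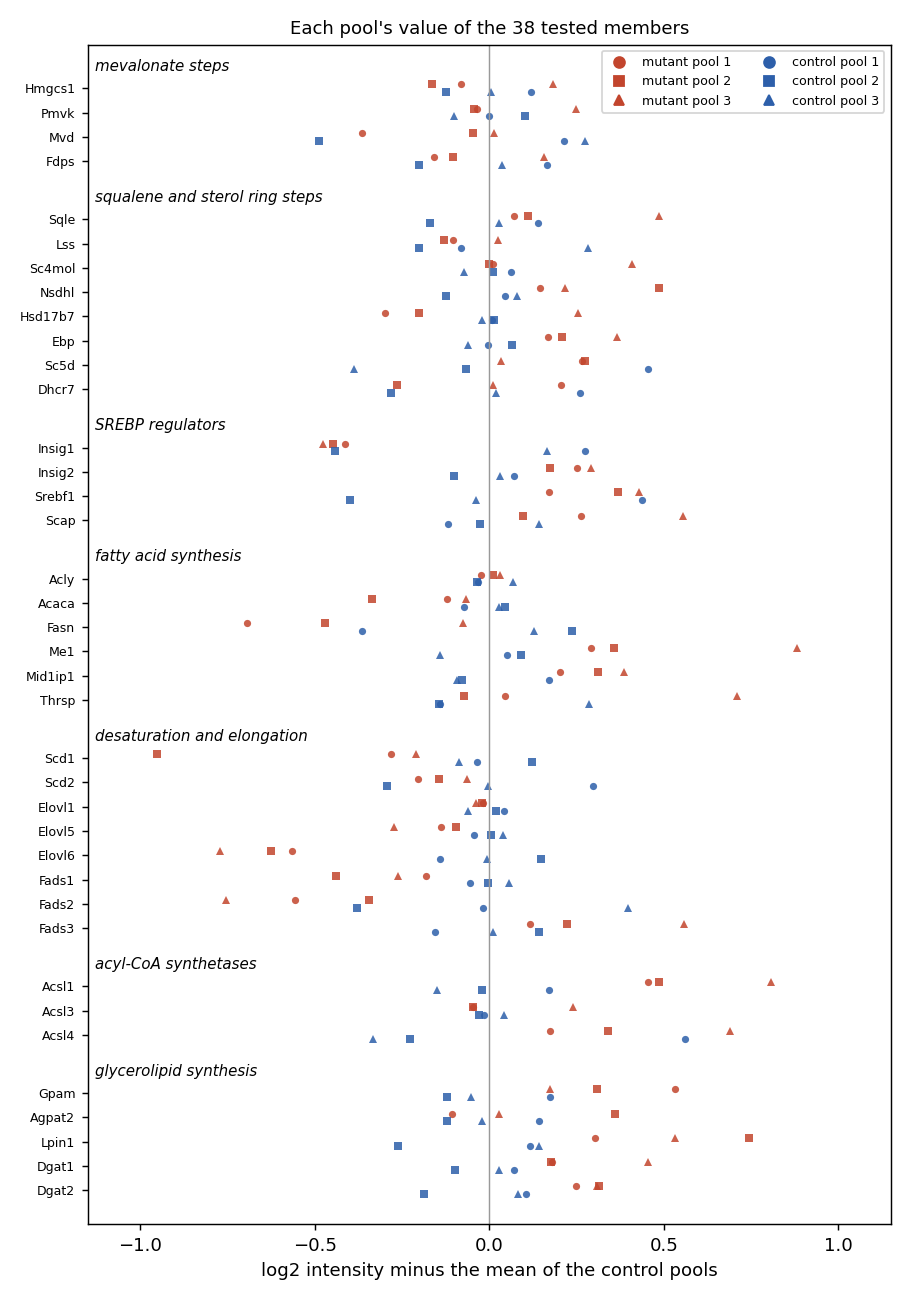
Log2 intensity of the 38 tested members in each pool, given as the difference from the mean of the pools labelled control, with red for pools labelled mutant and blue for pools labelled control. Red and blue points intermingle in the sterol genes other than Ebp and Nsdhl, while all red points of Elovl6, Scd1, Fads1 and Elovl5 lie left of the blue ones.

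Exact copies of the SRE letters were few in the promoters of the sterol and fatty acid genes that could be searched. Members without a window of bases before the start were not searched, so nothing is said of their promoters. Windows of 250 bases were found for 36 of the 44 members, and 2 of the 36 (5.56%) held the SRE letters on either strand in any of their windows, against 1.22% of 27025 genes. The members were Hmgcs1 and Acsl1, and both are shown because they carry the element of the pathway. The capitals mark the match, which for Acsl1 lies on the strand opposite to the gene and in the window of its downstream start. The Hmgcs1 stretch lies at chr13:119690189-119690247 and the Acsl1 stretch at chr8:46490865-46490923, both on the plus strand of GRCm38.p6, from RefSeq.
Hmgcs1: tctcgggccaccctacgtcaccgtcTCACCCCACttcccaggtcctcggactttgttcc
Acsl1: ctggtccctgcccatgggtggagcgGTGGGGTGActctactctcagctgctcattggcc
The E-box was in 6 of the 36 (16.7%, against 6.86% of the 27025 genes), the CCAAT box in 27 (75.0%, against 37.5%) and the GC box in 28 (77.8%, against 35.4%). The 27025 are RefSeq genes with a window, detected here or not, and are not the 10831 genes tested. The 36 members had 48 windows and the 27025 genes had 32851, and a match in any window of a gene counted. A match is a stretch of letters, not a bound site.

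None of the 4 tested regulators passed. Srebf1, which encodes the SREBP that favours fatty acid genes, had 7.60, 7.80 and 7.86 in the pools labelled mutant, against 7.86, 7.03 and 7.39 in the pools labelled control, a log2 change of 0.32 (SE 0.21, limma adjusted p = 0.385). Insig1, an SREBP target that retains Scap, had 7.13, 7.09 and 7.07 in the pools labelled mutant and 7.82, 7.10 and 7.71 in the pools labelled control. Its groups overlapped through control pool 2, and its log2 change was -0.45 (SE 0.19, limma adjusted p = 0.198). Without control pool 2 the change of Insig1 was -0.67 and passed (limma adjusted p = 0.0471). It did not pass without any other single pool (adjusted p 0.278 to 0.396). Its other kept probes gave -0.38 and -0.04 with all pools. When the background was left in, the changes were -0.24 for Insig1 and 0.18 for Srebf1.

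Insig2, the other retention protein, had 11.14, 11.07 and 11.18 in the pools labelled mutant, against 10.96, 10.79 and 10.92 in the pools labelled control, without overlap (log2 change 0.24, SE 0.09, limma adjusted p = 0.162, and 0.10 by its other kept probe). Insig1 and Insig2 thus lay on different sides of 0, and neither passed. Scap had a log2 change of 0.30 (SE 0.14, adjusted p = 0.235).

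**Figure D4:**
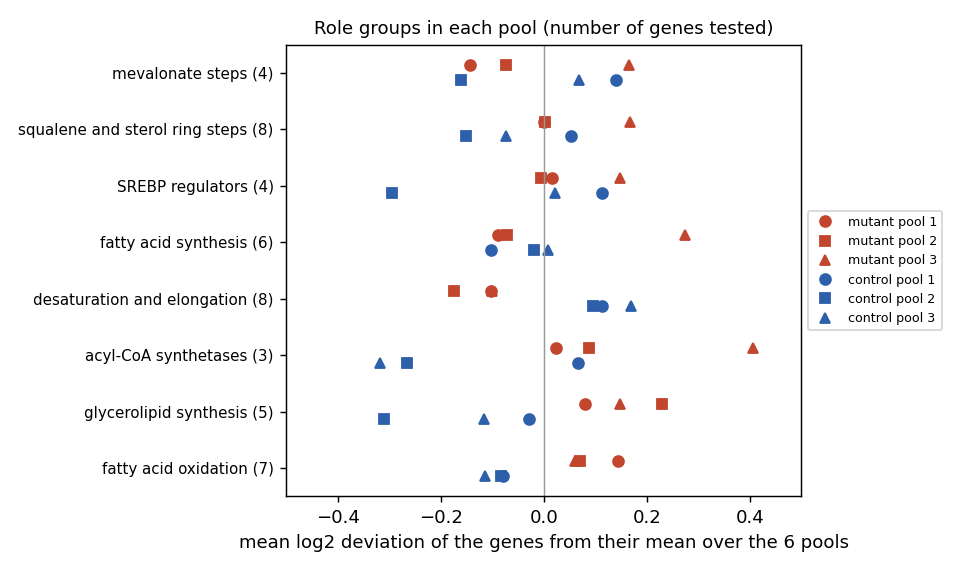
Mean log2 deviation, for each role group, of its genes from their averages across all 6 pools (red, labelled mutant; blue, labelled control; shapes are pool numbers), with the number of genes in brackets. The pools separate for desaturation and elongation, glycerolipid synthesis and fatty acid oxidation, and mix for the mevalonate steps, the ring steps, the SREBP regulators, fatty acid synthesis and the acyl-CoA synthetases.

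Other genes around the pathway gave no call either: of 36 tested genes in 6 lists none passed limma's test in either direction, with 7 of the 36 higher and 1 lower at an unadjusted p below 0.05, against 12.1% higher and 13% lower over all genes. Among other sterol enzymes, Acat2 had a log2 change of -0.03 (SE 0.10) and Cyp51 of -0.04 (SE 0.18). Vldlr, a lipoprotein receptor, had 10.24, 9.78 and 9.63 in the pools labelled mutant, against 10.33, 10.41 and 10.28 in the pools labelled control, without overlap (log2 change -0.46, SE 0.16, limma adjusted p = 0.148). On the side of sterol export, Apoe, a lipid carrier, had 10.50, 10.32 and 10.40 in the pools labelled mutant, against 10.08, 10.12 and 9.86 in the pools labelled control, also without overlap (log2 change 0.39, SE 0.11, adjusted p = 0.0853). Mbtps1, which cleaves SREBPs in the Golgi, had a log2 change of -0.03 (SE 0.13). Of the other lipogenic genes Elovl7, an elongase, had the smallest p (adjusted p = 0.122). Its probe was detected on all 3 arrays labelled mutant and on none labelled control, so only the mutant side brought it into the test. With the dim values raised to the detection limit, the group means differed 1.23-fold, and the gene did not pass.

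Fatty acid oxidation genes, which run opposite to synthesis, had changes above 0 in all 7 tested, and in 6 of the 7 the groups did not overlap with the mutant side higher, against 15.3% of all genes. The changes were small, with a median of 0.22, and none reached the threshold in limma's test (4 at an unadjusted p below 0.05). Slc25a20, the carnitine carrier of mitochondria, had 11.03, 11.05 and 11.07 in the pools labelled mutant, against 10.81, 10.82 and 10.77 in the pools labelled control (log2 change 0.25, SE 0.08, adjusted p = 0.110). The mean log2 deviation of the list was 0.14, 0.07 and 0.06 in the pools labelled mutant and -0.08, -0.08 and -0.11 in the pools labelled control. The part of the skeletal muscle markers, summed above, in these values was not tested.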

How the data were processed

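The deposited raw table gives, per the file headers, a mean bead intensity, a standard error, a bead count and a detection p-value for each of 25697 probes on 6 arrays. Per the submitters' processing notes, R 3.2.3 and limma 3.26.9 were used. The deposited series values and the authors' table are on the log2 scale and lie within 0.017 of the values computed here. The authors' table also holds p-values and limma score columns (t and B), per the file headers, and its log2 fold changes run as mutant minus control. Here, raw intensities were corrected and quantile normalized with neqc of limma 3.58.1 under R 4.3.3 (offset 16, background inferred from the detection p-values). Probes detected (p below 0.05) on at least 3 arrays were kept, 14711 in all. Symbols were updated through RefSeq (GRCm38.p6): 12036 of 18120 were current, 5218 were updated and 866 kept. The brightest kept probe stood for each of 10831 genes. Differences were tested with limma (lmFit and eBayes) over all genes with Benjamini-Hochberg adjustment. The test was tried on simulated data. The number of arrays limits the precision. Intervals (95%) use limma's moderated errors.

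The members, role groups and other lists were chosen with earlier results of these data known. Values in every pool are given for members that passed, for the member with the smallest p in a role group where none passed and for Srebf1 and Insig1. Other genes given so were chosen after their values were seen. In other lists, up to 4 passing genes or the one with the smallest p were named, and a gene that this rule would name is not reported here. The promoters of Hmgcs1 and Acsl1 were added after the search.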

Additional observations from a re-analysis of the deposited data

How the results depend on the processing

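Each count and median was recomputed under 13 other settings and without each pool in turn, keeping probes and normalization when a pool was left out. The sterol branch had 0 calls in each of these fits. Members called lower numbered 1 with all pools and the chosen settings, 0 with pool number as a replicate block, 2 with a variance trend and robust fit (Elovl6 and Fads1) and 0 to 1 without 1 pool; those of the fatty acid branch were the same except 0 without control pool 2, where Insig1 was the member called. Members called higher, always Acsl1, numbered 1 at adjusted p below 0.1, with array median scaling, array weights, detection on all 6 arrays, no background correction, offset 50 and the trend and robust fit, against 0 otherwise. Other pathway genes called higher numbered 1 at adjusted p below 0.1, with median scaling and with the trend and robust fit, 2 with array weights and without background correction; 0 to 1 were called lower without 1 pool. The fatty acid median of 0.07 was 0.15 with median scaling and -0.0024 with array weights, 0.03 with the mean or the second brightest probe, and -0.0095 to 0.15 without 1 pool. The sterol median of 0.02 ran from -0.03 to 0.11 without 1 pool, and was 0.11 with median scaling and -0.01 with array weights or without a detection filter. Pools sharing a number did not deviate together (correlations -0.01, -0.09 and -0.10), and with the replicate block the adjusted p of Elovl6 was 0.0735. Elovl6 also lost its call without any pool but control pool 1. Calls over all genes were 234 higher and 365 lower. They were 42 and 80 with the block, 608 and 760 at adjusted p below 0.1, 625 and 770 with array weights, 391 and 558 without background correction, 137 and 254 without a filter, and 455 and 627 with the trend and robust fit. Without 1 pool they ran from 24 to 228 higher and from 63 to 344 lower. The causes were not tested. Probes near background, among them those of Fasn and Fads2, limit what small changes can show.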

Other observations

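Some genes of lipid handling stood out in single pools. Stard4, which moves cholesterol between membranes, had 7.48, 7.28 and 8.01 in the pools labelled mutant, against 7.50, 9.18 and 8.30 in the pools labelled control, with the highest value in control pool 2, where Tg was also highest. Lrp1, an endocytic receptor, was also highest there, at 7.83, against 7.08 and 6.89 in the other pools labelled control. Pparg, a regulator of fat cells, had 7.78, 7.77 and 8.13 in the pools labelled mutant, against 8.05, 7.31 and 7.02 in the pools labelled control, with its highest value in mutant pool 3 and its lowest in control pool 3. Nr1h3, the oxysterol receptor LXR-alpha, had 6.85, 7.08 and 7.02 in the pools labelled mutant, against 6.76, 6.42 and 6.00 in the pools labelled control, without overlap (log2 change 0.59, SE 0.19, limma adjusted p = 0.120). These genes were named after their values were seen.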
